A study of Drosophila melanogaster with 5 samples.

Results

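Histone H3 acetylated at lysine 18 (H3K18ac) was mapped by Cut&Run in wing discs of wandering larvae of Drosophila melanogaster, and the promoter peaks that lay downstream of a transcription start and had less signal after etomoxir are described here. The peaks were selected on these group concentrations. A peak was taken where the deposited annotation called it a promoter, its distance to the start was above 0, and the mean concentration of the etomoxir group was below that of the control group. The rule gave 373 of 2626 listed peaks (14.2%), assigned to 341 genes. They make up 17.0% of the 2194 peaks that were lower after etomoxir and 27.1% of the 1377 lower promoter peaks. For brevity they are called lost downstream peaks, although most kept part of their signal. By distance from the start to the nearest edge of the peak, 173 lay up to 1 kb away, 112 at 1 to 2 kb and 88 at 2 to 3 kb.

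The discs were of the genotype w1118 and came from male and female larvae. Cut&Run cuts out DNA around an antibody with a tethered nuclease, and the released fragments are sequenced. The control group held 3 libraries, 1 of discs dissected directly and 2 of discs cultured as explants for 2 h. The etomoxir group held 2 libraries whose discs spent 2 h in culture medium containing the drug at 500 µM. Etomoxir blocks mitochondrial uptake of long-chain fatty acids and so fatty acid β-oxidation (FABO). Because the control mean includes discs that were never cultured, a share of each difference that comes from culture cannot be told apart from the effect of the drug. The discs were whole, so a change in the number of cells that carry the mark cannot be told apart from a change per cell.

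The values are concentrations, the log2 of the mean normalized read count of a group at a peak. A difference is the etomoxir concentration minus the control concentration, so a negative value means fewer reads after etomoxir. The table gives a mean per group and no value per library, so no spread between libraries and no new test can be given. It lists only peaks that the authors' own comparison had called, and unchanged peaks were not analysed here. The depth of each library is not in the table. The study's reporting form gives 1 cultured control far more unique reads than any other library, and its weight in the control means was not tested. All statements below on the size of the decrease are descriptions, since the same concentrations chose the peaks.

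Acetylation of lysine 18 is carried out in flies by Nejire, the orthologue of CBP and p300, with acetyl-CoA as the donor. FABO is a source of that acetyl-CoA. The mark sits at promoters and enhancers of transcribed genes, and in compact genomes such as that of the fly, enhancers are common in the first introns of developmental genes. The wing disc is an epithelial sac that gives rise to the wing blade, the hinge and the notum. Its growth and pattern depend on the morphogens Dpp, Wingless and Hedgehog and on EGF receptor, Notch and Hippo signalling.

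The sequence under the peak centre is shown for 4 of the largest decreases, at least 1 per distance class, and for 2 peaks of Dpp pathway genes. Each is the central 300 bases in release 6 of the genome (dm6), read on the strand of the assigned gene. Capitals mark matches to 4 motifs on either strand, namely GAGAG of the factor encoded by Trl, CATTCC of Scalloped, TGATAA of the Pannier and Serpent family and TGACAG of Homothorax. The reverse complement CTCTC therefore counts as GAGAG, and overlapping matches run together. The lncRNA:CR43337 window is chr3L:621620-621919, minus strand. The chinmo window is chr2L:1668674-1668973, plus strand. The pnt window is chr3R:23293267-23293566, minus strand. The Tlk window is chrX:3743214-3743513, plus strand. The dlp window is chr3L:14634265-14634564, plus strand. The Dad window is chr3R:17056437-17056736, plus strand.
lncRNA:CR43337: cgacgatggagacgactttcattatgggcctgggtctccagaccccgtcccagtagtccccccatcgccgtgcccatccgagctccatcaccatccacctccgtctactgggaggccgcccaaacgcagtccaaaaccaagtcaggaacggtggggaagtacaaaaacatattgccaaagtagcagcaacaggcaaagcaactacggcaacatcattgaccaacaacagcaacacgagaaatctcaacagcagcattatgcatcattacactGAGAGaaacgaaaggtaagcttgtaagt
chinmo: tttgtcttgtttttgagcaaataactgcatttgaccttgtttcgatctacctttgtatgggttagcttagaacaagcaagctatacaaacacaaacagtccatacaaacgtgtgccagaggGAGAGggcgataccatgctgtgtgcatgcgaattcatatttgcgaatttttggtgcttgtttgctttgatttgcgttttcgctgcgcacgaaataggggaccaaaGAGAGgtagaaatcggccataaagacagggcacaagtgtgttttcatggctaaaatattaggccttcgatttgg
pnt: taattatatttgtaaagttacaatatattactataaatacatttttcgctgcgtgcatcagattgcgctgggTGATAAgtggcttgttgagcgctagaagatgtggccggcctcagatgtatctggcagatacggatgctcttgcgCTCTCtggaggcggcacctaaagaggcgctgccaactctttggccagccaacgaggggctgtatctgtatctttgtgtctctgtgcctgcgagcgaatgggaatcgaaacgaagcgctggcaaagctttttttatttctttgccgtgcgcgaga
Tlk: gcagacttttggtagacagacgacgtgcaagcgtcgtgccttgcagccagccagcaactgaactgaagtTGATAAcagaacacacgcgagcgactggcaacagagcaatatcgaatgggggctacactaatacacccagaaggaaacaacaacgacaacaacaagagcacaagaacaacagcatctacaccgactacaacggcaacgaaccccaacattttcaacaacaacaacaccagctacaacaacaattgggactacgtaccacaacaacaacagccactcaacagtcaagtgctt
dlp: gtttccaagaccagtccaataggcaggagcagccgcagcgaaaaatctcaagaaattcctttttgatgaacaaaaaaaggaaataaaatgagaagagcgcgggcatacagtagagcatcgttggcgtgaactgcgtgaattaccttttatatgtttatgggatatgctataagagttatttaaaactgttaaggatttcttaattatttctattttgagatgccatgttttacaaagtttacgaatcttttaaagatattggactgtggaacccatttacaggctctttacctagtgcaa
Dad: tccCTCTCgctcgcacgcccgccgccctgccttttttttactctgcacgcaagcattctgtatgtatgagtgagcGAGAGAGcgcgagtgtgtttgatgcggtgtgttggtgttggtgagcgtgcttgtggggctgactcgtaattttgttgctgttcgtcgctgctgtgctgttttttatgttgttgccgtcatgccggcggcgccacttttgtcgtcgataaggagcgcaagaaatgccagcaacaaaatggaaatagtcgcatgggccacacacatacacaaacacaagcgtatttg

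The Dad window held 3 matches to GAGAG, the chinmo window 2 and the pnt window 1 beside 1 match to TGATAA. The lncRNA:CR43337 window held 1 GAGAG, the Tlk window 1 TGATAA, and the dlp window no match to any of the 4 motifs. Window composition ranged from 36.3% GC at dlp to 52.0% GC at Dad. Over all 373 lost downstream peaks, 41.6% held GAGAG in the central 300 bases, against 41.6% of all listed peaks. CATTCC was found in 15.8% against 15.0%, TGATAA in 12.9% against 15.1%, and TGACAG in 10.2% against 10.2%. The 4 motifs were therefore about as frequent in lost downstream peaks as in the listed peaks at large. GAGAG was present in 37.6% of the peaks up to 1 kb, 45.5% of those at 1 to 2 kb and 44.3% of those at 2 to 3 kb. Among the 89 gained downstream peaks, which were higher after etomoxir, 27.0% held GAGAG. A match is a string of letters and not a bound site, and none of these shares was tested.

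Lost downstream peaks were most frequent right after the start and more evenly spread beyond it. The first 250 bases held 72 peaks, and each later bin of the same size held 12 to 34. The median distance was 1143 bases, with quartiles at 421 and 1951. The 461 lost promoter peaks upstream of a start lay closer, with a median of 753 bases and 120 peaks in the first 250. A further 543 lost promoter peaks covered a start and have no distance.

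**Figure D1:**
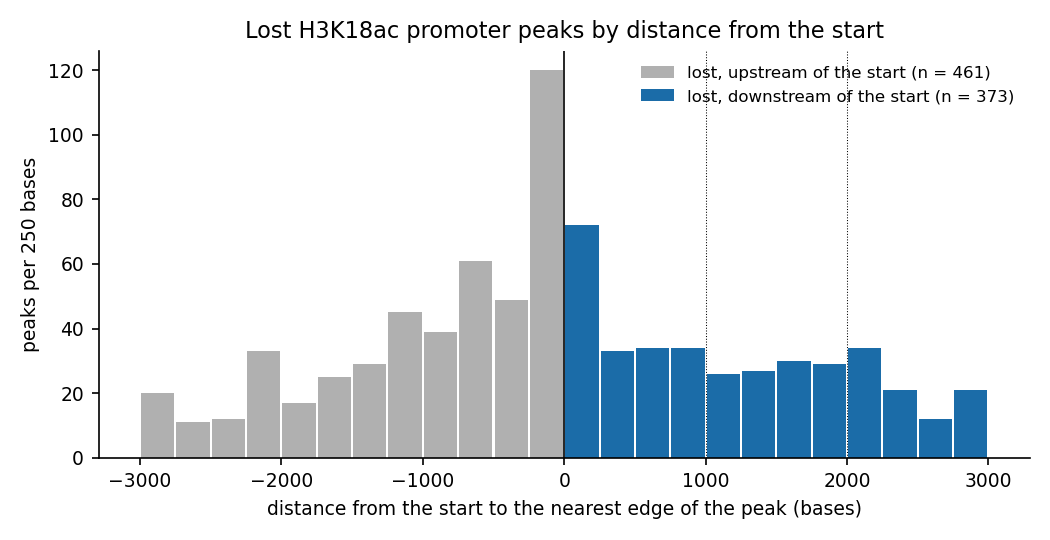
Number of lost H3K18ac promoter peaks per 250 bases of distance between the start and the nearest peak edge, upstream (grey, negative) and downstream (blue, positive), with dotted lines at 1 and 2 kb. The bin next to the start holds 72 peaks downstream and 120 upstream, and the downstream counts stay between 12 and 34 beyond it.

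The direction of the listed downstream peaks differed with distance. Of 462 downstream promoter peaks, 373 were lower after etomoxir (80.7%) and 89 were higher, where 83.5% of all listed peaks were lower. Up to 1 kb, 173 of 241 were lower (71.8%), a share under that of the whole list. At 1 to 2 kb, 112 of 126 were lower (88.9%), and at 2 to 3 kb, 88 of 95 (92.6%). Of the 89 gained peaks, 68 lay within 1 kb and only 7 beyond 2 kb, and their median distance was 155 bases. The rule set the direction, so nothing was tested here, and the shares describe which of the listed peaks it took.

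**Figure D2:**
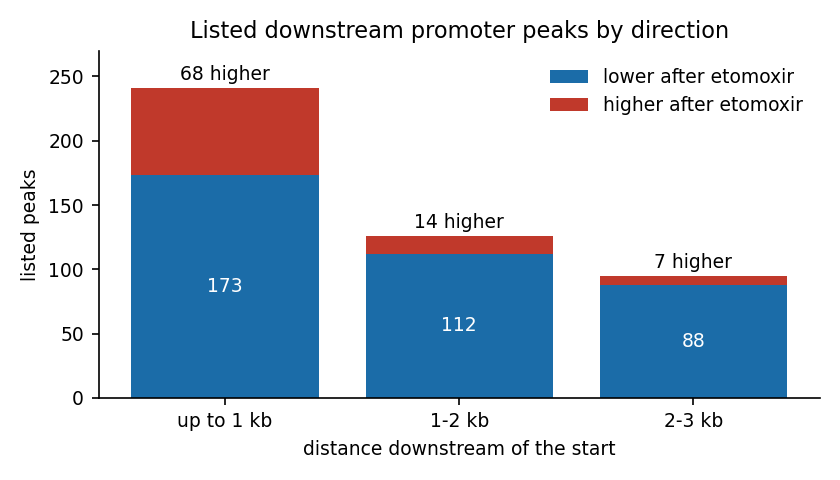
Listed promoter peaks downstream of a start in each distance class (vertical axis, number of peaks), split into those lower (blue) and higher (red) after etomoxir. The number of higher peaks drops from 68 up to 1 kb to 14 at 1-2 kb and 7 at 2-3 kb.

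The median difference of the lost downstream peaks was -1.16, with quartiles at -1.49 and -0.90 and a range from -3.01 to -0.48. The median control concentration was 6.58 and the median etomoxir concentration 5.35. In reads, the median peak kept 44.8% of its control value. A decrease of 1 or more on the log2 scale was seen at 243 of the 373 peaks (65.1%), where 57.5% of all listed peaks and 68.9% of all lost peaks had one. The former share counts peaks that were higher after etomoxir, which the rule leaves out, so the latter is the like comparison. The decrease was of similar size in each distance class, with medians of -1.15 up to 1 kb, -1.27 at 1 to 2 kb and -1.08 at 2 to 3 kb. Spearman's rho between distance and difference was near 0 within the peaks up to 1 kb (-0.08), at 1 to 2 kb (0.01) and at 2 to 3 kb (0.01). Lost peaks upstream had a median difference of -1.26 and lost peaks over a start -1.0, at control concentrations of 6.44 and 6.96.

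**Figure D3:**
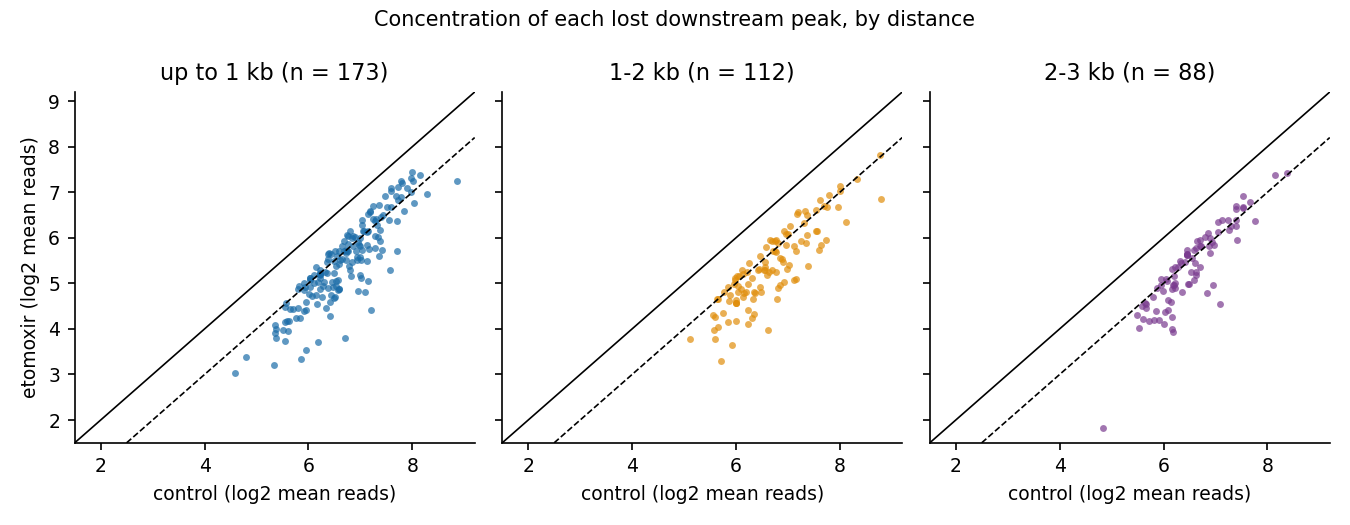
Control concentration (horizontal) against etomoxir concentration (vertical), both in log2 mean normalized reads, for each lost downstream peak in the 3 distance classes. The solid line marks equal values and the dashed line a difference of -1, and 243 of the 373 points lie on or below the dashed line.

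The lowest point, at 2 to 3 kb, belongs to lncRNA:CR44420 on chromosome arm 2R, 2412 bases from the start. Its concentration was 4.83 in controls and 1.82 after etomoxir, a difference of -3.01 that rests on few reads. Few reads were also left at most of the other largest decreases described below. Means after etomoxir were under 16 reads at those of HmgZ, lncRNA:CR44468, Tango8, chinmo, pnt and grh, and at 1 peak of lncRNA:CR43337. HmgZ came next in size. The gene encodes an HMG-box chromatin protein and went from 6.71 to 3.81 at a peak in the first intron, 671 bases from the start (-2.90). The related HmgD had a lost peak 133 bases from a start, at 6.56 in controls and 4.86 after etomoxir (-1.70). Both lie on 2R, where the HmgZ peak is also inside the annotated body of HmgD.

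lncRNA:CR43337 on 3L carried a pair of lost downstream peaks. The one 172 bases from its start (chr3L:621397-622144) went from 7.20 to 4.41 (-2.79), and the one at 1922 bases (chr3L:619841-620394) from 6.62 to 3.98 (-2.64). They had 14.5% and 16.0% of their control reads left. The nearest protein-coding start was that of Reg-2, with the former peak upstream of it at -14828 bases. Tlk, which encodes the Tousled-like kinase of chromatin assembly, lost signal 2962 bases from a start (chrX:3742859-3743870), from 7.08 to 4.54 (-2.54). A Tlk peak upstream of another of its starts, at -441 bases, was also lower (-1.88).

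lncRNA:CR44468 (-2.52) and Tango8 (-2.46) came next. The Tango8 peak began 10 bases from the start and had its centre past the end of the short transcript. That centre lay in the body of another protein-coding gene, sbb. chinmo, a BTB zinc-finger factor that maintains immature cell states, had a peak 582 bases downstream of its second annotated start (chr2L:1668429-1669219). That peak went from 5.96 to 3.53 (-2.43), and the peak 95 bases from the earlier start from 5.80 to 4.45 (-1.35). pnt encodes the ETS factor Pointed, which carries out EGF receptor signalling, and its peak in the first intron 1594 bases from the start (chr3R:23293190-23293644) went from 5.72 to 3.29 (-2.43). grh, the gene for the epithelial factor Grainyhead, went from 5.92 to 3.64 at 1844 bases (-2.28). At 2 to 3 kb, lncRNA:CR32773 came after lncRNA:CR44420 and Tlk, 2010 bases from its start (6.18 to 3.93, -2.25).

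The peaks with the most signal in controls were not those with the largest decreases. Up to 1 kb, the highest control concentration was at chn, the gene of the zinc-finger factor Charlatan, with 8.86 in controls and 7.25 after etomoxir (-1.61). Pino (8.29) and Tsp42Ed (8.14), a tetraspanin gene, came next, with differences of -1.32 and -0.76. At 1 to 2 kb, lncRNA:CR45052 (8.79), CG42327 (8.77) and Tsp42Ee (8.33) were highest and had differences of -1.93, -0.96 and -1.04. At 2 to 3 kb, T48 (8.38), which acts in apical constriction, lncRNA:CR43685 (8.15) and CG4066 (7.77) had differences of -0.95, -0.77 and -1.40. Across the 373 peaks, Spearman's rho between control concentration and difference was 0.24, and over all lost peaks it was 0.30. Only peaks that passed the authors' FDR limit are listed, and a weak peak passes more easily with a large decrease. That filter alone can give a positive rho, so no conclusion is drawn from it. The points share libraries, and the control value enters both measures.

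Most genes had 1 lost downstream peak (311 of 341), 28 had a pair and 2 had 3. E2f1, the cell cycle activator, was one of the latter. Its peaks were 1243, 1630 and 2598 bases downstream of 2 different starts and had differences of -1.45, -0.89 and -1.91. Control concentrations there were 7.34, 6.06 and 6.01. shn, whose zinc-finger product Schnurri represses target genes in response to Dpp, was the other. It went from 7.13 to 5.84 at 428 bases (-1.29), from 6.33 to 4.66 at 1510 bases (-1.67) and from 6.49 to 4.80 at 1614 bases of another start (-1.69).

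Of the 341 genes, 152 also had a lost peak in another position and 189 had none. A lost peak over a start was found at 48, a lost promoter peak upstream at 52 and a lost peak outside promoters at 85. Matching shares for other genes are not given, so these counts do not set this part apart. All 3 promoter positions were lost at 8 genes. Acsl was the only one of the 341 with a gained peak assigned to it as well. It is named for that reason, after its values were seen. It encodes a long-chain acyl-CoA synthetase, which activates fatty acids for use by the cell. The lost peak 1230 bases downstream went from 6.81 to 5.88 (-0.93), and 3 upstream promoter peaks of Acsl had differences of -0.92, -1.53 and -1.34. The gained peak assigned to Acsl lay upstream of the nearest Acsl start at -6114 bases, in an intron of another gene. It went from 6.07 to 6.87 (0.80), and whether it bears on Acsl was not tested.

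The place of a peak in its transcript was not used by the rule. The peak centre lay in an intron of the assigned transcript at 193 of the 373 peaks (51.7%), and at 153 of these the intron was the first. It lay in an exon at 72 and past the end of the transcript at 107. The exon share went from 34.7% up to 1 kb to 6.25% at 1 to 2 kb and 5.68% at 2 to 3 kb, while the intron share was 42.8%, 59.8% and 59.1%. Distance alone sets part of that change. Gained downstream peaks had their centre in an exon at 36.0%, close to the 34.7% of lost peaks up to 1 kb, the distance at which 68 of the 89 gained peaks lay. An exon after the first held 20 of the 89 gained peaks (22.5%) and 19 of the 173 lost peaks up to 1 kb, a difference that was not tested.

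**Figure D4:**
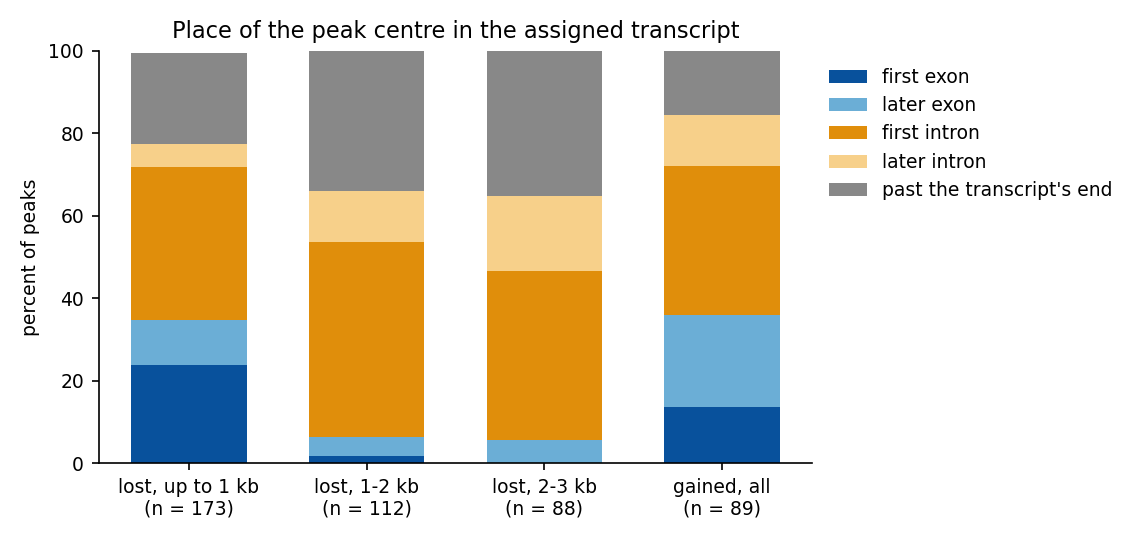
Percent of peaks whose centre lies in each part of the assigned transcript, for lost downstream peaks by distance and for all gained downstream peaks. Introns (orange shades) hold 42.8%, 59.8% and 59.1% of the lost peaks from near to far, and 1 lost peak that could not be placed is left blank.

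Peaks past the transcript's end were mostly at short genes not annotated as protein-coding. Of the 114 peaks whose gene is not annotated as protein-coding, 69 (60.5%) lay past the end. Of the 259 peaks at protein-coding genes, 38 (14.7%) did. The median transcript length was 736 bases over all 114 peaks and 10867 bases over all 259. Over the 107 peaks past the end it was 663 bases. The 114 peaks comprised 102 at ncRNA genes, 6 at tRNA genes, 1 at a pseudogene and 5 whose gene was not matched and may be of any kind. Their median difference was -1.36, against -1.07 at protein-coding genes. Genes not annotated as protein-coding, unmatched ones included, took 30.6% of the lost downstream peaks, 21.7% of the lost upstream peaks, 17.9% of the lost peaks over a start and 21.8% of all listed peaks.

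The assigned gene is only the nearest start, and other genes lay close. Of these 114 peaks, 39 lay in the body of a protein-coding gene, 40 were within 3 kb of a protein-coding start and 38 were more than 10 kb from any. A peak assigned to lncRNA:CR45243 was 253 bases upstream of fng, which encodes the glycosyltransferase Fringe that modifies Notch, and went from 6.80 to 5.30 (-1.50). A peak assigned to lncRNA:CR43717 lay in the body of ex, a gene of the Hippo pathway, and went from 6.84 to 4.78 (-2.06). mir-ban, the growth-promoting microRNA bantam, had its lost peak 2009 bases from the start, beyond its 81-base transcript, at 6.23 in controls and 4.89 after etomoxir (-1.34). In all, 122 of the 373 peaks (32.7%) were also within 3 kb upstream of another gene's start, and 12 of these were within 500 bases. No peak was closer to that other start than to its assigned one, which follows largely from assignment to the nearest start.

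Many of the starts were not the outermost of their gene. The assigned start was the first of the gene at 250 peaks and a later one at 118 (31.6%), so that a peak could be downstream of one start and upstream of, or far from, another. The peaks had a median width of 906 bases, against 1215 for lost peaks over a start and 780 for lost peaks upstream. Their median GC content of 45.5% was close to that of the lost peaks over a start (44.7%) and upstream (45.3%), and gained downstream peaks had 41.9%. The arms X, 2L, 2R, 3L and 3R carried 60, 78, 76, 80 and 79 lost downstream peaks. Chromosome 4 had none, although 67 of the listed peaks lie there, of which 12 were lower after etomoxir.

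Genes were looked up by role in 15 lists with 227 annotated genes, which cover wing patterning, signalling, junctions, chromatin, FABO and markers of other cells. Of the 227, 24 had a lost downstream peak, 28 peaks in all. Among genes with any lost peak, 24 of 101 list genes (23.8%) had a downstream one, against 341 of 1469 genes overall (23.2%), so the lists together were at the background. The lists were chosen with earlier results of these data known, and no enrichment was tested. Counts of list genes with a lost peak in any position are given below without a share over all annotated genes. They are therefore not a result about the lists.

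In the Dpp pathway, 4 of 16 genes had a lost downstream peak. tkv, the type I receptor of Dpp, went from 6.58 to 4.88 in its first exon 411 bases from the start (-1.70). dlp, a glypican that shapes the spread of Dpp and Wingless, went from 7.39 to 5.39 at 1179 bases (chr3L:14633780-14635051), which is a difference of -2.0. Dad, the inhibitory Smad that is itself induced by Dpp, went from 6.93 to 5.03 at 1237 bases (chr3R:17056134-17057040), a difference of -1.90. With the 3 peaks of shn, the median of the Dpp pathway was -1.69 over 6 peaks, beside -1.16 over all lost downstream peaks. All 6 had a decrease of more than 1, and the shn peaks at 428 and 1510 bases were adjacent. Further lost downstream peaks in the body of dally, of the same list, were assigned to CG32026 (-1.01) and CG43169 (-0.98). They are not part of this median. At tkv, dlp and Dad, other lost peaks lay in introns outside the promoter range, such as 1 at dlp 13433 bases downstream with a difference of -1.95.

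The Wingless pathway had 3 of 20 genes with a lost downstream peak, each in the first intron. fz2, a receptor of Wingless, went from 6.49 to 4.99 at 2033 bases (-1.50). sgg, the GSK3 kinase that promotes degradation of Armadillo, had peaks at 720 bases (6.48 to 4.92, -1.56) and 205 bases (6.59 to 5.72, -0.87) from different starts. Wnt2, a ligand of the same family as Wingless, went from 6.86 to 6.11 (-0.75). Of the Notch list, 1 of 23 genes was found, mam, the coactivator Mastermind, from 6.09 to 4.41 (-1.68). None of the 12 genes of the Hedgehog list had a lost downstream peak, although 6 had a lost peak in another position. That list did not hold shf, whose lost downstream peaks are given below.

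In the EGF receptor and FGF list, 3 of 18 genes were found. Beside pnt, the ETS factor gene Ets21C went from 6.34 to 4.47 at 632 bases (-1.87), and sty, the feedback inhibitor Sprouty, from 6.21 to 5.26 at 1105 bases (-0.95). The ETS factor genes had the larger decreases of the 3 peaks. In the Fat and Hippo list, 3 of 15 genes were found under their listed names, namely dachs, an atypical myosin (-1.03), wts, the kinase Warts (-0.94), and kibra, which acts upstream of Warts (-0.86). bantam, the other symbol of that list, is annotated as mir-ban and had the lost downstream peak given above (-1.34), which makes 4 of 16. The ecdysone response genes br and Kr-h1, 2 of 11, went from 5.91 to 4.39 (-1.52) and from 6.58 to 5.07 (-1.51).

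**Figure D5:**
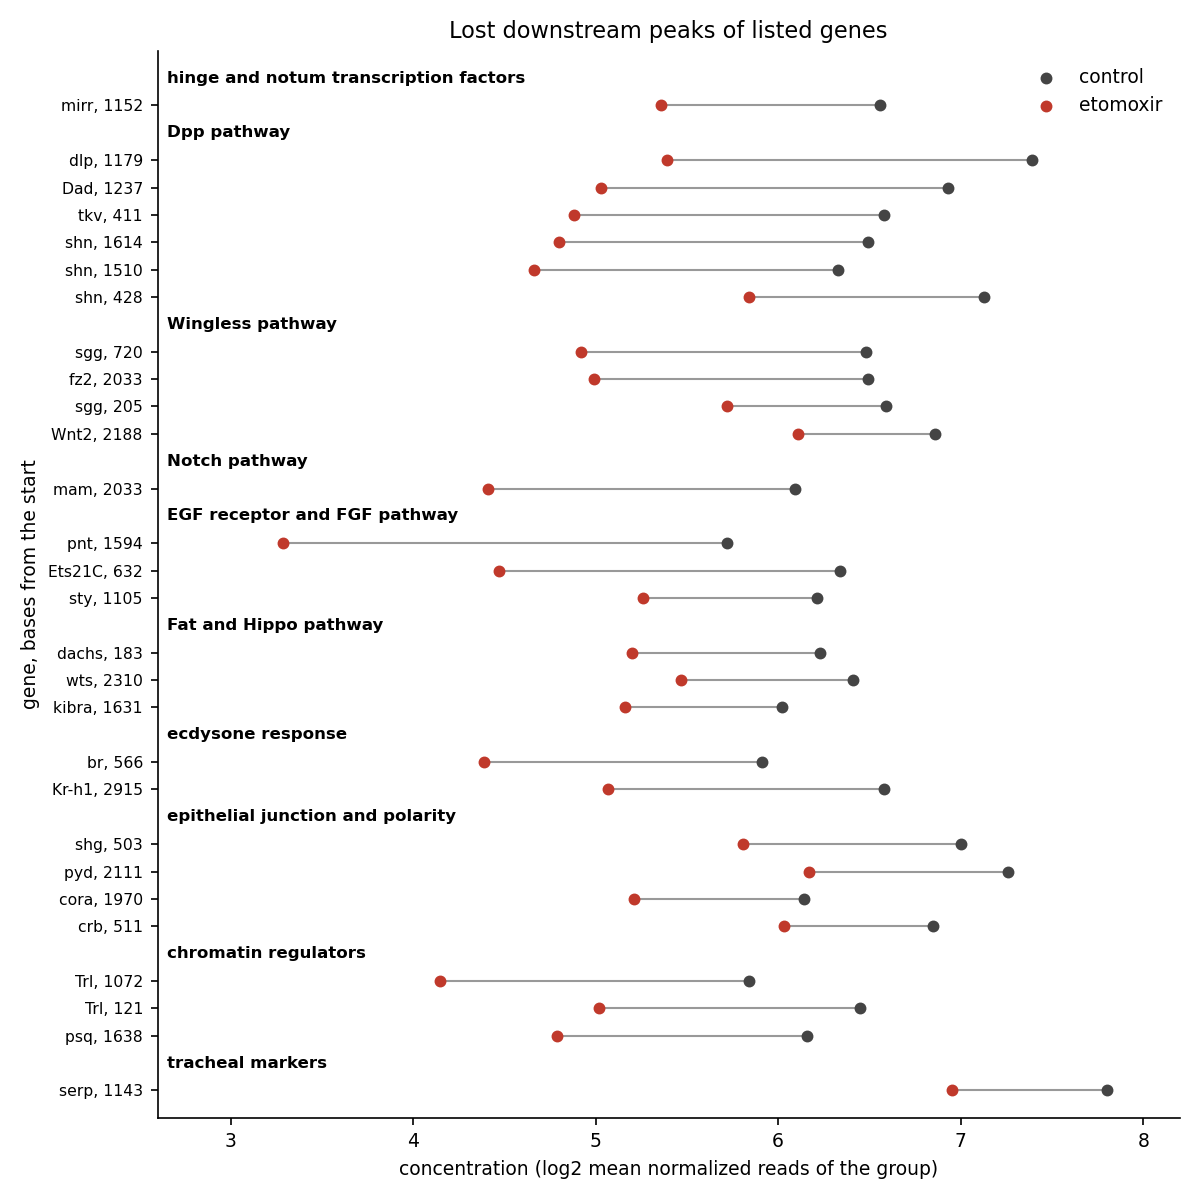
Control (dark) and etomoxir (red) concentrations, in log2 mean normalized reads, of the 28 lost downstream peaks at genes of the role lists, each row a peak with its distance from the start in bases. The widest gap is at pnt (5.72 to 3.29), and every peak assigned to a Dpp pathway gene has a gap of more than 1.

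Of 16 epithelial junction and polarity genes, 4 were found, namely shg, the E-cadherin gene (7.0 to 5.81, -1.19), pyd, a ZO-1 orthologue (-1.09), cora, of the septate junction (-0.93), and crb, an apical determinant (-0.82). A further peak in the body of pyd, assigned to tRNA:Arg-TCG-2-3, had a difference of -1.82. Among chromatin regulators, 2 of 16 were found, and both bind GA-rich DNA. Trl, the GAGA factor gene, had peaks at 1072 bases (5.84 to 4.15, -1.69) and 121 bases (6.45 to 5.02, -1.43), and psq, the Pipsqueak gene, went from 6.16 to 4.79 (-1.37). None of the 13 listed genes of FABO and acetyl-CoA metabolism had a lost downstream peak, and 2 of them had one elsewhere. That list did not hold Acsl, whose lost downstream peak is given above.

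Of 28 transcription factor genes of the hinge and notum, 20 had at least 1 lost peak, most often outside promoters (15 genes). Over the lists together, 101 of 227 genes had one, and the share over all annotated genes is not given. mirr was the only hinge and notum gene to which a lost downstream peak was assigned. Further ones assigned to non-coding genes lay in the body of ush (lncRNA:CR46259, -1.43 and -1.56) and within 3 kb of the start of bowl (lncRNA:CR43704, -1.01). mirr, a homeobox gene of the Iroquois complex, went from 6.56 to 5.36 at 1152 bases in its first intron (-1.20). Of the 20 pouch and sensory organ factors, 11 had a lost peak and none a downstream one. Of the genes the study took up by in situ hybridization or named beside the peaks (mirr, Sox15, hth, E5, drm, grn, mamo and zfh2), mirr alone had a lost downstream peak.

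Markers of other cells that a dissected disc can hold were looked up as well. None of 8 adult muscle precursor markers had an assigned lost downstream peak and 3 had a lost peak in another position, and a peak in the body of twi, assigned to CG42741, had a difference of -1.22. None of 7 haemocyte markers had a lost peak of any kind. Of 7 tracheal markers, 3 had a lost peak, and 1 of these a downstream one. There serp, a chitin deacetylase gene, went from 7.80 to 6.95 (-0.85). The table holds no expression values, so the tissue label could not be checked here.

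A further grouping by role was drawn from the members themselves, after their values were seen, and is a description only. Transcription factors and cofactors took 38 peaks of 28 genes, with a median difference of -1.36. Of these, 36 had their centre in an intron, 32 in the first, and 24 were at a start other than the outermost. Of all lost downstream peaks at protein-coding genes, 70.3% lay in an intron and 55.6% in the first. A later start was assigned at 31.6% of all lost downstream peaks. The group was drawn by hand and nothing was tested, so these counts are not a result about such genes. Bx, which encodes a LIM-only cofactor of the dorsal compartment, had peaks at 194 bases (5.55 to 4.16, -1.39) and 2402 bases (5.92 to 4.20, -1.72). crol, another zinc-finger gene, had differences of -1.27 at 830 bases and -0.74 at 2240 bases.

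Ligands, receptors and signalling modulators took 24 peaks of 20 genes, with a median of -1.21. Fs, the gene of Follistatin, an inhibitor of activins, went from 7.28 to 5.77 at 643 bases (-1.51) and from 6.02 to 4.38 at 2991 bases (-1.64). shf, which aids the spread of Hedgehog, had differences of -0.90 at 124 bases and -1.22 at 2181 bases. Adhesion, junction and cytoskeleton genes took 19 peaks of 16 genes, with the smallest median of the 5 groups, -0.85. CadN, the N-cadherin gene, stood apart from these at 1880 bases (6.34 to 4.32, -2.02), while its peak at 2882 bases had a difference of -0.85.

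Chromatin proteins took 7 peaks of 7 genes, with a median of -1.69, HmgZ, HmgD and Tlk among them. Genes of the apical matrix and cuticle took 8 peaks of 7 genes, with a median of -1.26. pot, a zona pellucida domain protein that holds the epithelium to the cuticle, had differences of -1.62 at 1462 bases and -1.05 at 2959 bases. pio, of the same kind, went from 6.54 to 4.95 (-1.59), and the cuticle protein gene Cpr62Ba from 7.01 to 5.11 (-1.90).

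The limits of the rule cut through a continuum. The lost peak nearest to a start belonged to lncRNA:CR43704, 3 bases downstream (-1.01), followed by otk and CG1737 at 9 bases (-2.13 and -1.55). Just outside, the peak of Pkn lay 4 bases upstream (-0.83). Ids at 1000 bases (-0.91) and lncRNA:CR44737 at 1003 (-0.96) were on either side of 1 kb. tRNA:Glu-TTC-1-1 at 1991 bases (-1.41) and mir-ban at 2009 were on either side of 2 kb. CG43169 at 2992 bases (-0.98) was the last within 3 kb, and nkd at 3005 bases (-1.47) the first beyond it. The smallest decrease was that of mir-927 (7.58 to 7.10, -0.48), and the smallest increase of a downstream promoter peak that of Maf1 (9.53 to 9.90, 0.37).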

How the data were processed

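Cut&Run libraries for H3K18ac were made from wing discs, 3 of the control and 2 of the etomoxir group. The authors trimmed reads with Trim Galore 0.6.3, aligned them to dm6 with Bowtie2 2.4.2, removed duplicates, called peaks with MACS2 2.1.1.20160309.6, compared groups with DiffBind 2.10.0 and annotated peaks with ChIPseeker 1.18.0. Yeast spike-in DNA was added, and whether it scaled the libraries is not given in the sources used here. The deposited log2 concentrations of each group, coordinates, annotation and distances were used. The authors' fold change, p-value and FDR columns hold their own comparison and were not used, except that no deposited FDR was above 0.05.

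File starts count from 0 and were shifted by 1. The deposited distance was recomputed exactly for 2626 of 2626 peaks. Transcripts and genes were matched to Ensembl release 115 (98.8% and 98.1%), transposable elements left out. Sequence came from the dm6 assembly in RefSeq (release 6). Since the table holds group means, no statistic across libraries was computed, and peaks were not treated as replicates. The members and the gene lists were chosen with earlier results of these data known. Named are the 10 largest decreases, and the 3 largest decreases and 3 highest control values per class. Also named are genes of the lists, genes with 3 peaks, the peaks next to each limit, and the study's probe genes. Added after values were seen were the role groups, the pairs of peaks, Acsl, HmgD, sbb and mir-ban. So were fng, ex and other list genes near a peak assigned elsewhere. Alternatives cover the size of the decrease, the distance measure, merged peaks, reference starts, a minimum concentration and the promoter reach. The distance, place and motif functions were tested on simulated data. Scripts ran under Python 3.11.15 with pandas 2.3.3, numpy 2.4.6 and scipy 1.17.1, and plots were drawn with matplotlib 3.10.9.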

Additional observations from a re-analysis of the deposited data

How the results depend on the processing

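Where only differences of -1 or lower were kept, 243 peaks at 224 genes remained, with a median difference of -1.40. With the distance taken to the peak centre, 601 peaks at 546 genes met the rule, with a median of -1.08, 58.9% of them within 1 kb and 38.9% in introns. Of the 373 peaks, 334 were among these 601, which added 267 peaks, since a peak that covers a start can have its centre downstream. With a promoter reach of 1000 bases, 173 peaks at 169 genes were left, by construction 100% within 1 kb, of which 42.8% were in introns. Merging peaks within 500 bases (364), the starts of the reference annotation (370, of which 369 were shared) and a control concentration of at least 5 (370) left the number of peaks, their median, their genes, the share within 1 kb and the intron share close to the reported values. Searching the whole peak raised the motif shares to 78.3% for GAGAG, 45.6% for CATTCC, 38.6% for TGATAA and 31.4% for TGACAG. In the same order, the whole-peak shares of all listed peaks were 77.2%, 42.0%, 43.7% and 31.3%. No paired analysis was possible because the table holds group means, and for the same reason no library could be left out in turn. Reads limit the lowest values: 21 of the 373 peaks had a mean of under 16 reads after etomoxir. Unchanged peaks were not analysed here, so shares are of listed peaks only.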
